A study of Mus musculus with 7 samples.

Results

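The 8 genes described here, Klrd1, Klrc1, Klrc2, Klrk1, Klrb1c, Klrb1f, Klre1 and Klra1, encode killer lectin-like receptors and were found by their symbols in the deposited gene table, from a list drawn up with earlier results of these data known. They are 8 of the 30 genes with a Klr symbol in that table, which lists 25469 genes with a read in at least 1 library. All 8 passed the filter on low counts. RNA was sequenced from CD4+CD25+ splenocytes, the fraction taken as regulatory T cells (Tregs), of wild-type C57BL/6 males. Aged mice were 18 months old (3 libraries) and young mice 8 weeks old by the sample labels (4 libraries), although the study's methods put the young group at 10 weeks. The labels name no treatment for either group, and the libraries are described as biological replicates. Cells were isolated with magnetic beads rather than sorted by Foxp3, so the fraction can hold other splenocytes.

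Killer lectin-like receptors are C-type lectin-like proteins of the cell surface, best known from natural killer (NK) cells and also found on effector and memory T cells, NKT cells and gamma-delta T cells. CD94, the product of Klrd1, forms dimers with NKG2A (Klrc1), which inhibits, or with NKG2C (Klrc2), which activates, and both dimers bind Qa-1, encoded by H2-T23, with a peptide in its groove. NKG2D (Klrk1) activates through the adaptors DAP10 (Hcst) and DAP12 (Tyrobp) and binds stress-induced ligands of the Raet1, H60 and Ulbp1 families. Klrb1c encodes the activating receptor NKR-P1C, the NK1.1 antigen of C57BL/6 mice, and Klrb1f encodes NKR-P1F, one of the NKR-P1 receptors that bind Clec2 proteins. Klre1 encodes a receptor chain that pairs with the products of Klri1 and Klri2, and Klra1 encodes Ly49A, an inhibitory receptor for class I MHC.

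All 8 genes lie on chromosome 6 of GRCm38, in the gene cluster that holds most lectin-like receptors of NK cells (annotation GENCODE M21). Klrb1c is at chr6:128778485-128789215 and Klrb1f at chr6:129045901-129057464. Klre1 (chr6:129577905-129585827), Klrd1 (chr6:129591782-129598775), Klrk1 (chr6:129610323-129623864), Klrc2 (chr6:129647496-129660689) and Klrc1 (chr6:129666015-129678973) follow in this order, with Klrc3 between Klrk1 and Klrc2, and Klra1 is at chr6:130363917-130386874. Klrb1f, Klre1 and Klrd1 are on the plus strand and the others on the minus strand.

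The sequence before the transcription start is shown for the 4 members that have a TGTGGT match in a window with at most 5 bases of annotated exon, and for Klrb1f as the one without such a match. Each is the 250 bases before the start given by RefSeq (GRCm38.p6), on the strand of the gene. Capitals mark matches to 4 motifs searched on both strands, CTTTGA (TCF/LEF), TCACAC (T-box), TGTGGT (RUNX) and TTCNNNGAA (STAT), and no matches overlap.
Klrb1c, chr6:128788642-128788891, minus strand: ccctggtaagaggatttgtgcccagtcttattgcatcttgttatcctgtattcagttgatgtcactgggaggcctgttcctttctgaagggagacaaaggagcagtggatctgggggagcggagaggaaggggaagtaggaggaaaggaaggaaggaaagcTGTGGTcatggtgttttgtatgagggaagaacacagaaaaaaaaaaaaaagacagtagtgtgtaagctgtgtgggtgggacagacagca
Klrk1, chr6:129623865-129624114, minus strand: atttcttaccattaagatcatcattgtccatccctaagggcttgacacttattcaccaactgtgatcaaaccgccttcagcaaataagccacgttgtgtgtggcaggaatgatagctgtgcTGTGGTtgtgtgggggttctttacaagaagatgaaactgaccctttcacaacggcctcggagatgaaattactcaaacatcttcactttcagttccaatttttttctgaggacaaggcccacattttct
Klrc1, chr6:129678974-129679223, minus strand: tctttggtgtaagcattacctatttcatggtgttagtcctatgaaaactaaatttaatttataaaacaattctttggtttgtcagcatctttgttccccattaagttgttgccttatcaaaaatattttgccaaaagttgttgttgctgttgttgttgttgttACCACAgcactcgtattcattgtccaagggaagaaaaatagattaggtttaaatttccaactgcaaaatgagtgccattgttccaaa
Klra1, chr6:130386875-130387124, minus strand: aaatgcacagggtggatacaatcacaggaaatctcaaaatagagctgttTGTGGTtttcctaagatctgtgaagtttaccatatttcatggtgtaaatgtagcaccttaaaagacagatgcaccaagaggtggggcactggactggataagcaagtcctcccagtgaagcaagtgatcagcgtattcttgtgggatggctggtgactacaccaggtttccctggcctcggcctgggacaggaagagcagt
Klrb1f, chr6:129045651-129045900, plus strand: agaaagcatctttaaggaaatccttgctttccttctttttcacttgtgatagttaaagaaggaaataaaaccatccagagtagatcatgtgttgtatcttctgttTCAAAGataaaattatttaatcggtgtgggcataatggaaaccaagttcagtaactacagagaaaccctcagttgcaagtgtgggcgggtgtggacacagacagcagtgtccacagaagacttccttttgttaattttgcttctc

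RefSeq promoter entries were found for 7 of the 8 members (none for Klrd1). TGTGGT or its complement ACCACA stood in the window of 6 of the 7 (Klrb1c, Klre1, Klrk1, Klrc2, Klrc1 and Klra1), and for Klre1 in 1 of its entries. The windows of Klre1 lie wholly in annotated exons, and those of Klrc2 hold 93 and 133 exon bases, so these are in part or whole transcribed sequence. TGTGGT or ACCACA stands in 14.0% of the 32851 windows of the same length before the starts of all genes. The 7 genes descend from common ancestors, so their windows are not independent, and a match is a description of letters and not of binding. CTTTGA was matched in 1 member, Klrb1f (13.8% of all windows), TCACAC in 1, Klre1 (12.3%), and TTCNNNGAA in 0 of the 7 (7.02%).

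Klrc1 and Klrc2 share sequence, which limits how their reads can be assigned. Of all 50-base windows in the annotated transcripts of Klrc1, 38.6% also occur in another gene, mostly in Klrc2, and for Klrc2 the share is 16.3%. Klrd1, Klrk1 and Klrb1f have 0 such windows. The end of both coding sequences is shown because 100 bases up to the stop codon are identical. The stretch holds 30 bases before that run and its first 60 bases (coding positions 603 to 692 of Klrc1 and 585 to 674 of Klrc2), and capitals mark the 2 bases that differ.
Klrc1: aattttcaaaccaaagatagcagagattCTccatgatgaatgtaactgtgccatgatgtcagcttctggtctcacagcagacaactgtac
Klrc2: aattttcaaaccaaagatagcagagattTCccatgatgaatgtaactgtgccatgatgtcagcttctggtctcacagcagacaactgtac

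Gene counts per library were 10734234 to 11244060 in aged and 12039894 to 13649310 in young mice. Levels are given as counts per 1e6 counts of the library (CPM) on the scale of TMM, the normalization of edgeR, with means ± SD over the 3 aged or the 4 young libraries. On that scale 3 counts, taken as the limit of detection, equal 0.21 to 0.302 CPM. The members were read 5 to 216 times in a library, with Klra1 the lowest. Foxp3, Cd4 and Il2ra were read in every library, and Foxp3, the factor that defines Tregs, averaged 516 ± 93.3 CPM in the aged and 446 ± 61.8 CPM in the young group. Il2ra, the gene of CD25, averaged 380 ± 87.0 CPM in the aged and 579 ± 94.3 CPM in the young group. For Cd4 the averages were 441 ± 6.34 CPM in aged and 545 ± 62.1 CPM in young mice. None of these genes was called in the comparison described next. Aged and young libraries were compared over all genes with edgeR's quasi-likelihood test, and a gene was called with a Benjamini-Hochberg adjusted p under 0.05 over the 13904 genes tested.

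Of the 8 receptor genes, 2 were lower in the aged CD4+CD25+ fraction, Klrd1 and Klrb1c, and 0 were higher. Klrd1 fell to 41.5% and Klrb1c to 60.3% of the young level. Over all genes tested, 16.7% were called, 9.8% as higher and 6.94% as lower, and since the 8 were listed with results known, the 2 of 8 is a description. The same 2 members were those whose groups did not overlap, which was the case for 29.9% of all genes in either direction and for 14.4% with the aged libraries below the young. The median log2 fold change was -0.38 over the members and 0.02 over all genes tested. Klra1, with 18, 5 and 5 aged against 5, 23, 28 and 28 young reads, passed the filter through the young group. That bears on its direction, so nothing is read from this median. In each aged library the 8 genes summed to less (32.9 to 43.2 CPM) than in each young library (48.3 to 62.0 CPM), but without Klrd1 and Klrb1c the sums of the ages overlapped. In bulk RNA, fewer cells that carry a receptor and less of its RNA per cell cannot be told apart.

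**Figure D1:**
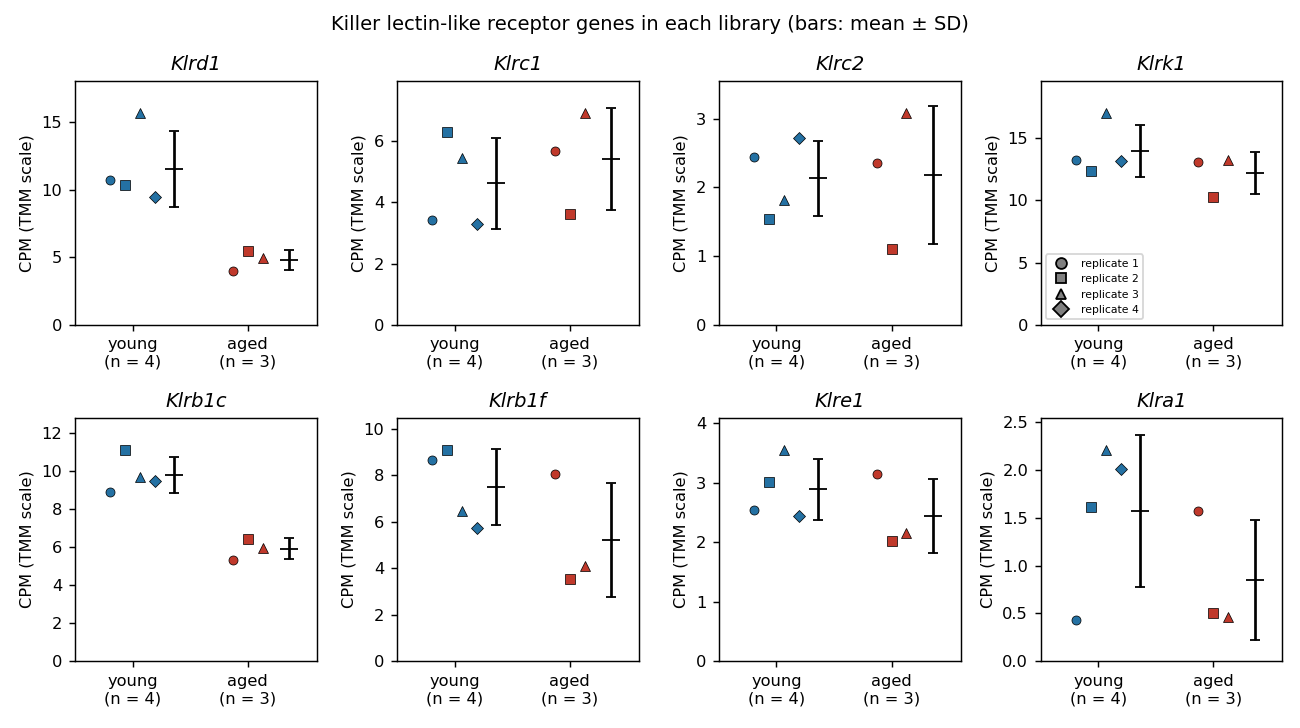
CPM on the TMM scale of each receptor gene in each library, young (blue, n = 4) and aged (red, n = 3), with symbols for the replicate and bars for mean ± SD. The aged points of Klrd1 (4.02 to 5.44 CPM) and Klrb1c (5.33 to 6.45 CPM) lie below all young points, and the groups of the other 6 genes overlap.

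Klrd1 (ENSMUSG00000030165), which encodes the chain common to the CD94/NKG2 dimers, stood at 4.02, 5.44 and 4.96 CPM in the aged libraries, replicates 1 to 3 in turn. The young libraries, replicates 1 to 4, held 10.7, 10.4, 15.7 and 9.46 CPM. The highest aged library stood below the lowest young one, and young replicate 3 was above the other young libraries. The log2 fold change was -1.27 (standard error 0.227, 95% interval -1.79 to -0.75, adjusted p = 0.00853, edgeR). Klrd1 was called in all 7 fits with a library left out, with log2 fold changes from -1.36 to -1.08. With the replicate number as a block, its call was lost (-1.34, adjusted p = 0.0575, edgeR), although the labels do not say that these numbers pair the libraries. None of its 50-base windows occurs in another annotated gene.

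Klrc1 (ENSMUSG00000030167), the partner that makes the dimer inhibitory, did not follow Klrd1. The aged libraries held 5.68, 3.63 and 6.92 CPM and the young ones 3.41, 6.31, 5.45 and 3.30 CPM, in order of replicate. Both groups spanned a similar range, and the highest value was in an aged library. The log2 fold change of 0.23 was not called (standard error 0.316, adjusted p = 0.662, edgeR), and its 95% interval, -0.49 to 0.95, covers both a moderate fall and a near doubling.

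Klrc2 (ENSMUSG00000052736), the activating partner, measured 2.36, 1.11 and 3.09 CPM in the aged libraries. In the young libraries it measured 2.45, 1.54, 1.82 and 2.72 CPM. The aged values lay on both sides of the young ones. Its fitted log2 fold change was 0.04 (95% interval -0.81 to 0.90, standard error 0.374, adjusted p = 0.952, edgeR), with a sign that changed with the setting. Because of the shared sequence shown above, reads from the end of either coding sequence could be lost to both genes.

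The balance between CD94 and its partner was compared within each library as the ratio of read counts, a comparison chosen after the values were seen. Reads on Klrd1 were 0.708, 1.5 and 0.716 times those on Klrc1 in the aged libraries. For the young libraries the ratios were 3.15, 1.64, 2.88 and 2.87. Every aged ratio was below every young ratio, although aged replicate 2 and young replicate 2 came close to each other. A two-sided exact permutation test of this design cannot give a p below 0.0571, and this ratio reached it (adjusted over the 7 ratios compared, 0.133). The Klrd1 to Klrk1 ratio, free of shared sequence, averaged 0.403 ± 0.114 in the aged and 0.821 ± 0.084 in the young libraries, also without overlap. With Klrc1 and Klrc2 summed, the ratio of Klrd1 to both averaged 0.715 ± 0.376 in aged against 1.72 ± 0.361 in young mice, again without overlap. Klrd1 alone did not overlap between the ages, so its ratios to genes that were not called carry that fall with them and are no separate evidence.

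**Figure D2:**
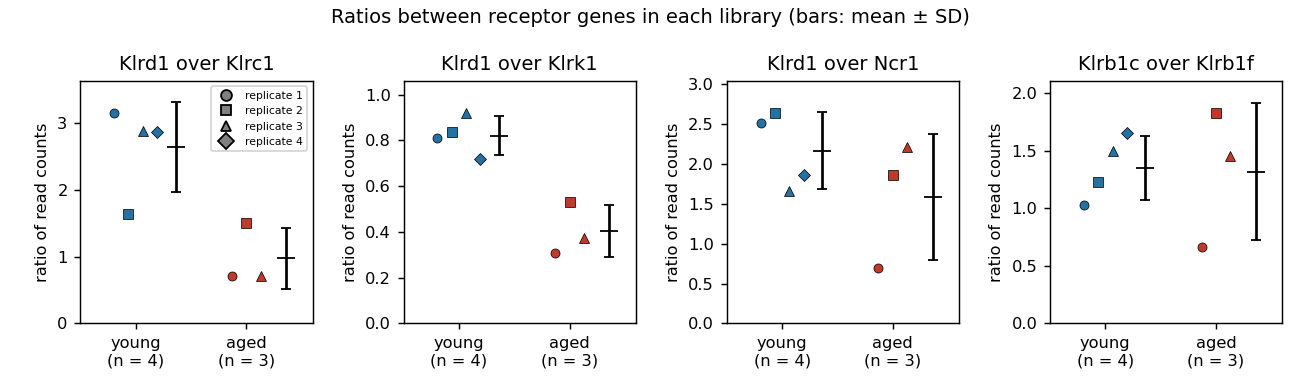
Ratio of read counts between pairs of genes in each library, young (blue, n = 4) and aged (red, n = 3), with bars for mean ± SD. Ratios of Klrd1 to Klrc1 and to Klrk1 do not overlap between ages (0.708 to 1.5 against 1.64 to 3.15 for Klrc1), while those of Klrd1 to Ncr1 and of Klrb1c to Klrb1f do.

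The ligand gene of CD94/NKG2, H2-T23, moved the other way. It averaged 524 ± 36.1 CPM in the aged against 388 ± 15.4 CPM in the young group and rose by 0.43 in log2 (standard error 0.102, adjusted p = 0.0244, edgeR). The call held in 2 of the 7 fits with one library left out, with adjusted p-values up to 0.157 over all alternatives. A rise was not particular to H2-T23 among class I genes. H2-K1 (log2 fold change 0.43, adjusted p = 0.0834) and H2-D1 (0.21, adjusted p = 0.341, edgeR) also had positive changes, though neither was called.

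Klrk1 (ENSMUSG00000030149), which encodes the activating receptor NKG2D, was the most abundant of the 8 genes in CPM. Young replicates 1 to 4 gave 13.3, 12.4, 17.1 and 13.2 CPM, and aged replicates 1 to 3 gave 13.1, 10.3 and 13.3 CPM. Most libraries of both ages lay close together. Its log2 fold change of -0.19 was not called (standard error 0.164, adjusted p = 0.459, edgeR), and the 95% interval from -0.57 to 0.18 does not reach the fall seen in Klrd1. The adaptors were not called either. Hcst (DAP10) averaged 48.2 ± 12.9 CPM in aged against 37.4 ± 5.31 CPM in young mice (adjusted p = 0.224, edgeR), and Tyrobp (DAP12) 42.5 ± 4.29 against 46.4 ± 10.1 CPM (adjusted p = 0.669, edgeR). Of the NKG2D ligand genes, Ulbp1 (log2 fold change -0.82, adjusted p = 0.105, edgeR) and H60b (0.99, adjusted p = 0.146, edgeR) passed the filter and were not called, while Raet1d and Raet1e had too few reads to be tested.

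Of 20 genes for adaptors and signalling proteins, including Syk, Zap70, Vav1 and Inpp5d, 0 were higher and 2 were lower in the aged fraction, with 6.94% of all genes called lower. Ptpn6, which encodes the phosphatase SHP-1 recruited by inhibitory receptors, averaged 303 ± 39.1 CPM in young and 208 ± 31.1 CPM in aged mice, a fall with a log2 fold change of -0.55 (adjusted p = 0.0373, edgeR). This call held in 1 of the 7 fits with a library left out. Pik3r1, a regulatory subunit of PI3-kinase, had a log2 fold change of -0.73 (adjusted p = 0.0216, edgeR), a call that held in 5 of those 7 fits. The median log2 fold change of the 20 genes was -0.01.

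Klrb1c (ENSMUSG00000030325), the gene of NK1.1, was the other member that fell. Its level was 5.33, 6.45 and 5.99 CPM in the aged libraries. In the young libraries it was 8.91, 11.1, 9.71 and 9.46 CPM. Both groups were narrow and did not overlap. The log2 fold change was -0.73 (standard error 0.159, 95% interval -1.09 to -0.37, adjusted p = 0.0185, edgeR). The value moved little when one library was left out (-0.79 to -0.66), but the call was lost without aged replicate 3 (adjusted p = 0.0535), without young replicate 3 (0.0511) and without young replicate 4 (0.0509). It was also lost with the replicate number as a block (-0.74, adjusted p = 0.109, edgeR). Of the exon length of Klrb1c, 13.9% overlaps exons of Gm44511 on the same strand, a gene with 0 reads in every library, so reads on that part may have been left unassigned. Of its 50-base windows, 17.0% occur in another gene, and 107 of these are shared with Klrb1a.

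Klrb1f (ENSMUSG00000030154) differed more between libraries of an age. Aged replicates 1 to 3 gave 8.04, 3.52 and 4.12 CPM, against 8.65, 9.11, 6.48 and 5.73 CPM for young replicates 1 to 4. Aged replicate 1 stood within the young range and the other aged libraries below it. The log2 fold change of -0.51 was not called (standard error 0.317, 95% interval -1.24 to 0.21, adjusted p = 0.301, edgeR). Without aged replicate 1 it was -0.97 and was called (adjusted p = 0.0374).

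Other genes of the NKR-P1 group were read beside these. Klrb1a, which encodes the activating receptor NKR-P1A, had 14, 15, 29 and 22 reads in the young libraries against 6, 2 and 3 in the aged ones. Klrb1a was called lower, with an adjusted p of 0.0188 (edgeR, log2 fold change -2.14, standard error 0.469). It passed the filter through the young group, which bears on the direction it could be called in, so nothing is read from this call. The call was lost without aged replicate 2 and without aged replicate 3 (adjusted p-values up to 0.103 over the alternatives). Klrb1b, which encodes an inhibitory receptor and lies next to Klrb1c, averaged 13.5 ± 2.91 CPM in aged and 15.3 ± 2.32 CPM in young mice (log2 fold change -0.18, adjusted p = 0.544, edgeR). Of the Clec2 ligand genes, Clec2i rose, with 85.0 ± 5.68 CPM in young and 115 ± 18.7 CPM in aged mice (log2 fold change 0.43, adjusted p = 0.0436, edgeR), a call that held in 1 of the 7 fits without one library. Over the 18 ligand genes listed, 8 passed the filter, of which 2 were higher (H2-T23 and Clec2i, against 9.8% of all genes) and 0 lower, with a median log2 fold change of 0.43.

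Klre1 (ENSMUSG00000050241) gave 3.15, 2.01 and 2.15 CPM in the aged and 2.53, 3.01, 3.55 and 2.44 CPM in the young libraries. The groups overlapped because of aged replicate 1. Its fitted log2 fold change was -0.24 (95% interval -0.84 to 0.36, standard error 0.262, adjusted p = 0.574, edgeR). Genes of its partner chains, Klri1 (log2 fold change -0.74, adjusted p = 0.337, edgeR) and Klri2 (-0.73, adjusted p = 0.144, edgeR), were not called.

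Klra1 (ENSMUSG00000079853), the gene of Ly49A, was the least read member, with 18, 5 and 5 reads in the aged and 5, 23, 28 and 28 in the young libraries. It passed the filter through the young group, which bears on the direction of its change. Aged replicate 1 resembled most young libraries, and young replicate 1 resembled the other aged ones. Its 95% interval ran from -2.26 to 0.52 around a log2 fold change of -0.87 (adjusted p = 0.362, edgeR), and it was not called in any alternative that could test it. Leaving out aged replicate 1 gave -1.69 (adjusted p = 0.119) and leaving out aged replicate 3 gave -0.58 (adjusted p = 0.652). Of the other Ly49 genes tested, Klra2, Klra3, Klra4, Klra7, Klra8 and Klra9 were not called, with log2 fold changes from -1.19 (Klra4) to 0.01 (Klra3), and the pseudogene Klra13-ps was not called either (0.69). The Ly49 genes are close relatives, and 51 windows of 50 bases are common to Klra1 and Klra4.

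Among the 22 other genes with a Klr symbol, 13 passed the filter, of which 2 were lower (Klrb1a and the pseudogene Klra14-ps) and 0 higher. Both had so few reads in the aged libraries that they passed the filter through the young group, which bears on the direction they could be called in, so nothing is read from this count. Klra14-ps had 14, 17, 15 and 9 reads in the young libraries against 4, 1 and 2 in the aged ones (log2 fold change -2.23, adjusted p = 0.0195, edgeR). Of the 7 fits with a library left out, it passed the filter in 4 and was called in 2, losing its call without aged replicate 2 and without aged replicate 3 (adjusted p-values up to 0.0829 over the alternatives). Klrg1, a marker of terminally differentiated effector T cells and of a subset of Tregs, was the most abundant Klr gene in CPM, with 33.7 ± 3.55 in aged and 35.0 ± 8.99 in young mice, and was not called (log2 fold change -0.05, 95% interval -0.52 to 0.41, adjusted p = 0.888, edgeR).

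**Figure D3:**
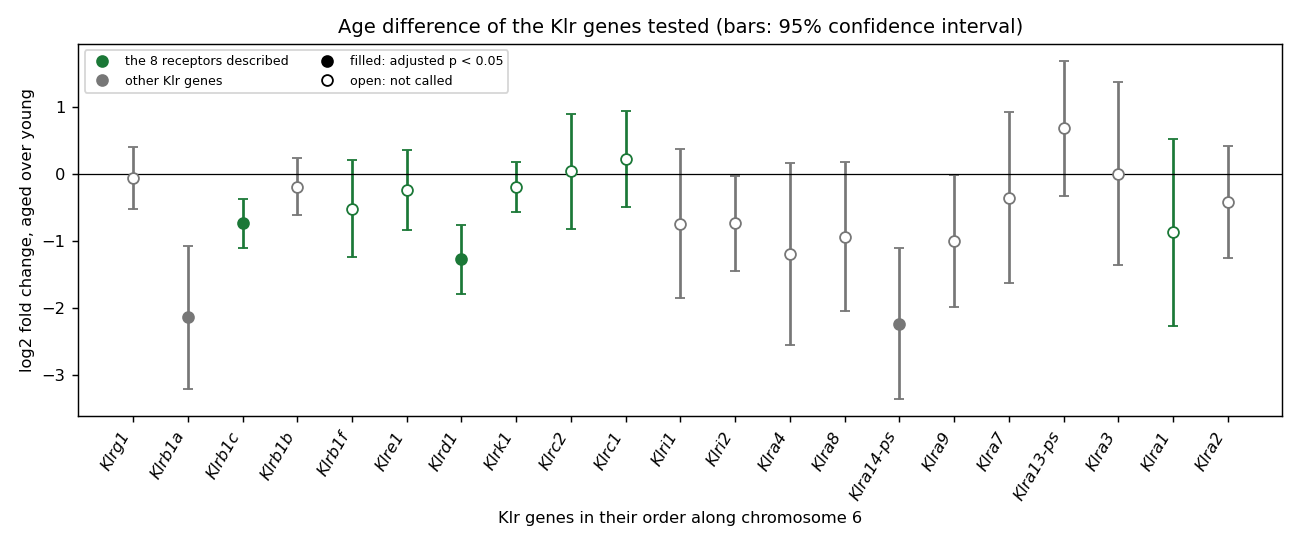
Log2 fold change (aged over young) of the 21 Klr genes tested, in their order along chromosome 6, with 95% confidence intervals. Filled points (Klrb1a, Klrb1c, Klrd1 and Klra14-ps) are called as lower, and uncalled genes such as Klrb1b, Klrk1 and Klre1 lie next to called ones. Klrb1a and Klra14-ps passed the filter through the young group.

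Klrd1, which fell, lies between Klre1 (log2 fold change -0.24) and Klrk1 (-0.19), which were not called. Klrb1b, which lies next to Klrb1c, was not called either. The 95% intervals of Klre1 and Klrd1 overlap, as do those of Klrb1b (-0.61 to 0.25) and Klrb1c, so these are no contrasts. Of the 21 Klr genes tested, 17 had log2 fold changes below 0 (median -0.51), against 6674 of 13904 over all genes. Some, such as Klrb1a, passed the filter through the young group, so nothing is read from that count.

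Per kilobase of annotated exon, Klrd1 had the highest mean at both ages, and the order of the other members was not tested. In the young fraction Klrd1 led with 9.04 ± 2.20 CPM per kb, and its lowest library (7.39) was above the highest of any other member. Klrb1f (3.70 ± 0.811), Klrb1c (3.31 ± 0.321), Klrc1 (2.33 ± 0.756) and Klrk1 (1.95 ± 0.291) followed, each with a range that touched that of the next. Klra1 (0.888 ± 0.45), Klre1 (0.826 ± 0.147) and Klrc2 (0.367 ± 0.0941) were lowest. In the aged fraction Klrd1 was at 3.75 ± 0.564 CPM per kb, and its lowest library (3.14) was below the highest of Klrb1f (3.97) and of Klrc1 (3.49). Klrc1 (2.73 ± 0.84), Klrb1f (2.58 ± 1.21), Klrb1c (2.00 ± 0.189) and Klrk1 (1.70 ± 0.235) followed, with ranges that overlapped. Klre1 (0.698 ± 0.177), Klra1 (0.481 ± 0.356) and Klrc2 (0.376 ± 0.172) were lowest, each with a range that touched that of the next. The exon length counts all annotated isoforms, which lowers the values of Klrk1 and Klrc2, with 7.183 and 5.812 kb, more than that of Klrd1, with 1.281 kb.

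Members were also compared by pattern, as the root mean square difference between centred log2 CPM values over the 7 libraries. The closest pair of members was Klrk1 and Klre1 (0.182 on the log2 scale), and Klrc1 and Klrd1, whose products form a dimer, differed by 0.832. Among all genes with a mean log2 CPM of at least 2, the nearest to Klrd1 was Myb (0.15), which encodes a transcription factor of progenitor cells, and then Itga9 (0.191) and Vangl2 (0.194). The aged level of Myb was 40.6% of its young level. The nearest to Klrb1c was Vcam1 (0.0841), an adhesion molecule of splenic macrophages and stroma, and then Dhrs3 (0.0871) and Tecpr1 (0.096). The nearest to Klrc1 was Cd80 (0.133) and the nearest to Klrk1 was Cdc42bpg (0.0687). These genes were picked for their likeness over the same 7 libraries, so their own age differences follow from the choice.

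Genes of the effector programme that often accompanies these receptors in NK and CD8 T cells were set beside them. Of 15 cytotoxic and effector genes, 5 were higher and 0 lower in the aged fraction, with a median log2 fold change of 1.16 (over all genes 9.8% were called higher and 6.94% lower). Gzmk, encoding granzyme K, rose, with 0.546 ± 0.405 CPM in young and 6.62 ± 3.96 CPM in aged mice (log2 fold change 3.54, adjusted p = 0.00838, edgeR), although with 2, 11, 3 and 14 young reads it passed the filter through the aged group. Ccl5, a chemokine gene of memory T cells, had a log2 fold change of 1.41 (adjusted p = 0.00384), beside 1.36 for Cst7 (adjusted p = 0.00193) and 1.58 for Ccl4 (adjusted p = 0.0152, all by edgeR). The call of Ccl4 was lost without aged replicate 3, and that of Srgn, the fifth of these genes, held in 3 of the 7 fits with a library left out. Gzma, typical of NK cells, had a log2 fold change of -1.08 and was not called (adjusted p = 0.0864, edgeR).

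Of 16 other receptor genes of NK and effector T cells, 5 were higher and 1 was lower, where all genes gave 9.8% and 6.94%. Lag3 (log2 fold change 2.56), Crtam (1.64), Cxcr3 (1.64) and Tigit (1.58) rose, with adjusted p-values from 0.00125 to 0.00963 (edgeR), as did Il18rap. Cd244, encoding the NK receptor 2B4, fell, with 8.58 ± 0.874 CPM in young and 5.15 ± 0.329 CPM in aged mice (log2 fold change -0.74, adjusted p = 0.0193, edgeR), a call lost without aged replicate 2 and without young replicate 4 (adjusted p-values up to 0.143 over the alternatives). The list's median log2 fold change was 0.04.

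Of 19 transcription factor genes, 2 were higher and 5 lower, against 9.8% and 6.94% of all genes. Tbx21, encoding T-bet, rose, from 8.18 ± 1.79 CPM in young to 16.9 ± 2.16 CPM in aged mice (log2 fold change 1.04, adjusted p = 0.0105, edgeR), as did Prdm1, encoding Blimp-1 (1.20, adjusted p = 0.0326). Lef1 (-1.13, adjusted p = 0.000617) and Bach2 (-1.19, adjusted p = 0.00503), genes of naive T cells, fell, as did Tcf7, Ets1 and Zeb2. With a library left out, the calls of Tbx21, Lef1 and Bach2 held in 7 of 7 fits, those of Prdm1 and Tcf7 in 2 and those of Ets1 and Zeb2 in 1. Eomes, which NK cells need, averaged 8.95 ± 3.43 CPM in aged and 11.6 ± 2.49 CPM in young mice and was not called (adjusted p = 0.427, edgeR). Runx3, a RUNX factor of CD8 T and NK cells, was not called either (log2 fold change 0.28, adjusted p = 0.127, edgeR).

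**Figure D4:**
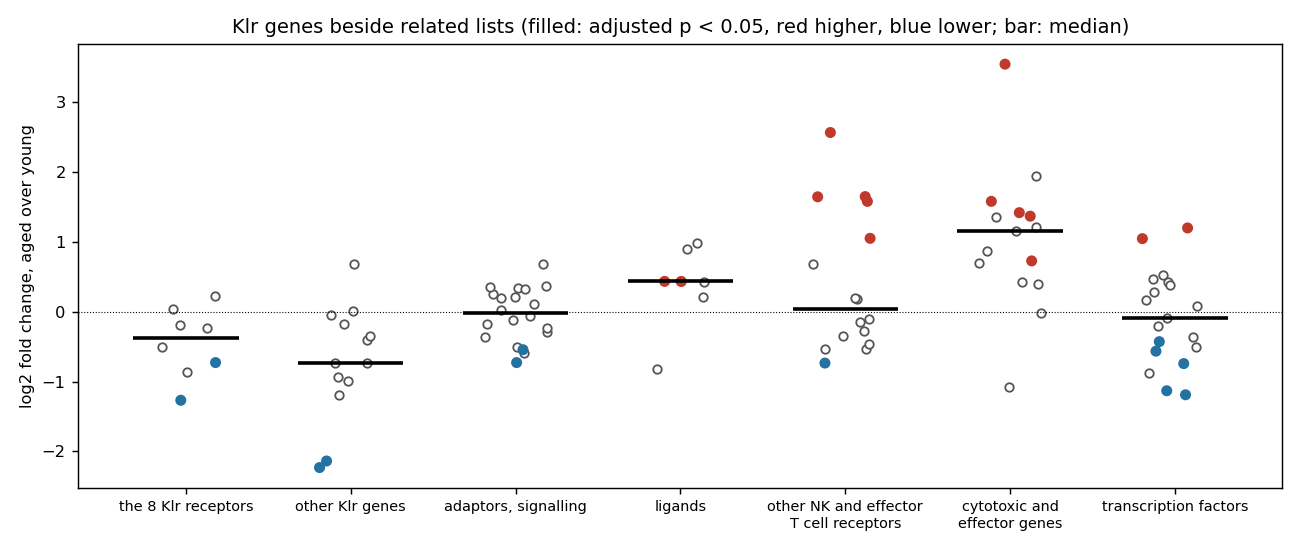
Log2 fold change (aged over young) of each gene tested, by list, with a bar for the median and filled points for genes with an adjusted p under 0.05 (red higher, blue lower). The 8 Klr receptors hold 2 lower and 0 higher genes (median -0.38), and the cytotoxic and effector genes hold 5 higher and 0 lower genes (median 1.16). Klra1 passed the filter through the young group and Gzmk through the aged group.

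Markers of other cells that carry Klr receptors were also read. Of the 12 NK cell and ILC1 markers outside the Klr family, 11 were tested, with 1 lower (Txk, log2 fold change -0.73, adjusted p = 0.00603, edgeR) and 0 higher, beside 6.94% called lower over all genes. Their median log2 fold change was -0.12, with 6 below 0 and 5 above, and they summed to 169 to 231 CPM in aged and 197 to 253 CPM in young libraries. Much of each sum came from Nkg7 (mean 49.4 CPM in aged, 36.8 in young), Tyrobp (42.5, 46.4) and Txk (36.7, 61.1). The sums therefore follow these genes more than Ncr1. Ncr1, which encodes the NK receptor NKp46, gave 5.77, 2.92 and 2.25 CPM in the aged and 4.28, 3.92, 9.48 and 5.09 CPM in the young libraries, overlapping between ages (log2 fold change -0.63, adjusted p = 0.334, edgeR). Reads on Klrd1 were 1.59 ± 0.792 times those on Ncr1 in aged and 2.17 ± 0.482 times in young libraries, again overlapping (exact permutation p = 0.343, adjusted 0.6). For Klrb1c to Ncr1 the ratio was 1.93 ± 0.903 in aged against 1.95 ± 0.747 in young libraries, with an exact permutation p of 0.971.

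Of 5 gamma-delta T cell markers, 2 were lower and 0 higher, against 6.94% and 9.8% of all genes (Tcrg-C1, log2 fold change -1.01, adjusted p = 0.0207, and Tcrg-C4, -0.85, adjusted p = 0.0290, edgeR). With a library left out, the call of Tcrg-C1 held in 3 of 7 fits and that of Tcrg-C4 in 2. The list summed to 20.3 to 25.0 CPM in aged against 35.5 to 49.3 CPM in young libraries, while 1 marker, Sox13, had a log2 fold change above 0 (0.76, adjusted p = 0.0931, edgeR). The defining gene Trdc was read 48 to 152 times and was not called (log2 fold change -0.69, adjusted p = 0.108, edgeR). The CD8 lineage genes Cd8a (log2 fold change -0.15, adjusted p = 0.784) and Cd8b1 (-0.36, adjusted p = 0.265, edgeR) were not called. Ccl5 and Crtam, effector genes of that list, were higher, against 9.8% of all genes. Gzmk was also called higher, but it passed the filter through the aged group, so nothing is read from its call here. Of the 5 NKT cell markers 3 were tested and 0 called, and they summed to 15.3 to 22.5 CPM in aged and 19.3 to 22.9 CPM in young libraries. Of the segments of the NKT cell receptor, Trav11 was read at most 1 time in a library while Traj18 had 9, 4, 1 and 2 reads in the young against 10, 3 and 7 in the aged ones, both too few to be tested. The part of NK and gamma-delta T cells in the values of Klrd1 and Klrb1c was not tested.

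The marker lists of other cells, T cells and Tregs held calls in both directions. Macrophage markers were lower for 3 of 8 (Csf1r, Adgre1 and Vcam1), neutrophil markers higher for 3 of 8 (S100a8, S100a9 and Csf3r), and dendritic cell markers higher for 1 (Zbtb46) and lower for 2 (Clec9a and Siglech) of 7, beside 9.8% called higher and 6.94% lower over all genes. With a library left out, the calls of S100a8, S100a9 and Clec9a held in 2, 4 and 1 of 7 fits. Without aged replicate 1 the log2 fold change of S100a8 was 1.29 in place of 2.25, and without aged replicate 3 that of Clec9a was -2.57 in place of -1.64. B cell and erythroid markers had 0 of 6 called each, although the erythroid sum ranged from 12381 to 156886 CPM over the libraries. Among T cell markers 1 was higher (Cd3e) and 1 lower (Cd5) of 6, and among Treg markers 2 of 11 were lower (Gpr83 and Lrrc32). The calls of Cd3e and Cd5 held in 2 and 1 of the 7 fits.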

How the data were processed

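RNA-sequencing counts of CD4+CD25+ splenocytes from 3 aged and 4 young mice were analysed. The authors deposited raw counts per Ensembl gene for each library, without normalization, in the layout of HTSeq-count (union mode, no strand). They also deposited one table of signal values, which are those counts divided by a constant per library (checked), with the authors' own fold changes and p-values, which were not used. The submitters' processing notes name the mm10 build. The aligner and annotation are not given in the sources used here. Gene symbols came from the deposited table, and coordinates and exon lengths from GENCODE M21 (GRCm38).

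Unassigned reads, from no gene or from more than 1, made up 13.1% to 20.9% of a library and were left out. Libraries came from SMART-Seq cDNA without molecular identifiers, so limits from counts cover counting error only. Without strand, antisense and overlapping genes cannot be separated.

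The age comparison used edgeR 4.0.16 (R 4.3.3, TMM, filterByExpr by group, quasi-likelihood test, Benjamini-Hochberg adjustment over all genes tested, no covariate). The study's methods name limma, which was run as an alternative (limma 3.58.1), beside DESeq2 1.42.0. Standard errors were derived from the log2 fold change and its F statistic. Ratios were compared with two-sided exact permutation tests (SciPy 1.17.1). Named genes are the 8 members, called Klr genes, up to 4 called genes per list with the largest change, the defining markers and the 3 genes most alike to a member. Others (Syk, Zap70, Vav1, Inpp5d, Srgn, Sox13, Traj18, Trav11, Tcf7, Ets1, Zeb2, Il18rap, Cd244, Hcst, Tyrobp, Ulbp1, H60b, Raet1d, Raet1e, H2-K1, H2-D1, Nkg7, Runx3, Gzma, Eomes, Klrb1b, Klrg1 and uncalled relatives) were named after values were seen. The members and lists were chosen with earlier results of these data known.

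As a check for libraries deposited more than once, counts of the same age were compared (chi-square per degree of freedom 8.16 to 165), and no pair matched within counting noise. Nothing beyond the label of biological replicate says that each library is 1 mouse.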

Additional observations from a re-analysis of the deposited data

Results flagged for a closer look

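Among 17 sets of 4 young libraries examined for a single distant value, 1 was found, and chance gives about 1 in 20. Klra14-ps was at 0.645 CPM (9 reads) in young replicate 4, against 1.18 to 1.22 CPM in the other young libraries. It was still above the highest aged library (0.349 CPM). Groups of 3 were not examined in this way.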

How the results depend on the processing

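Klrd1 kept its direction and its call in 15 of 16 alternatives (log2 fold changes -1.36 to -1.08). Klrb1c kept its direction in all 16 and its call in 12. Replicate numbers are shared between ages, but the labels do not say that they pair the libraries. Correlations of deviations from the age means were -0.0915, -0.292 and -0.138 for numbers 1 to 3. Pairs with different numbers gave -0.241 to 0.227. With so few pairs, whether the numbers mark a shared batch cannot be told. With the replicate number as a block, 292 genes were called in place of 2327, 0 members were called, and the log2 fold changes of Klrd1 and Klrb1c were -1.34 (adjusted p = 0.0575) and -0.74 (adjusted p = 0.109). Leaving out each library in turn gave 1237 to 3058 called genes (783 to 1603 higher and 448 to 1455 lower) and 1 to 3 called members, with log2 fold changes of Klrb1c from -0.79 to -0.66, of Klrb1f from -0.97 to -0.30, of Klra1 from -1.69 to -0.58 and of Klrc2 from -0.28 to 0.35. When a change of 1 or more on the log2 scale was required as well, 1 member, Klrd1, was left. The log2 fold change of Klrc2 turned negative with limma voom (-0.0158), limma-trend (-0.0398) and library size only (-0.00187). Its call did not change. The difference in the log2 ratio of Klrd1 to Klrc1, -1.49, ranged from -1.85 to -1.30 without one library, an alternative chosen after seeing the data. Klra1 could not be tested with at least 10 counts in every library. The cause of these changes was not tested.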
